A study of Hydra vulgaris with 2 samples.

Results

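The 5 *Hydra vulgaris* genes described here code for surface and matrix proteins whose names refer to families with EGF domains. They are a fibrillin-2-like gene (LOC100202765), a gene named after latent TGF-beta-binding protein 4 (LOC100202622, LTBP4-like below), protocadherin Fat 1 (LOC100202892), a protocadherin Fat 4-like gene (LOC100202388) and a gene described as like neurogenic locus notch homolog protein 1 (LOC100208093, Notch 1-like below). They were found by their pair of values in TPM, which are counts divided by transcript length and scaled to a common sum per library, in 2 RNA-seq libraries, and made up 6 of 25314 transcript targets: 4 genes were single mRNA targets and the fibrillin-2-like gene was the sum of 2 adjacent ones. The values themselves therefore chose the genes, and all levels and ratios below are given as a description, with no test. The names are those of the gene list that accompanies the study, and the domains behind them were not examined here. The study's list of EV proteins calls the product of LOC100208093 uncharacterized and gives no domain for it, so its Notch name rests on the gene list alone.

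Fibrillins are long extracellular glycoproteins, made mostly of calcium-binding EGF domains, that assemble into the microfibrils of animal matrix, and the latent TGF-beta-binding proteins of vertebrates are their relatives that hold TGF-beta in the matrix. Fat cadherins are very large single-pass membrane proteins with a long row of cadherin repeats, known from *Drosophila* and vertebrates for cell adhesion, planar polarity and the control of growth. Notch is a receptor with many EGF repeats that is cut after it binds a ligand on a neighbouring cell. In *Hydra* the epithelial layers are joined by a matrix, the mesoglea, and Notch signalling is known for its role in the differentiation of stinging cells and in the patterning of buds and head.

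Both libraries were of 1 condition, RNA of extracellular vesicles (EVs) collected from the medium of polyps of the strain Zurich, kept as 250 polyps in 10 mL for 4 days without food. The isolated vesicles had been exposed to proteinase K and then to RNase A before the RNA was extracted, and each library was pooled over many animals. The library labelled ExoRNA5000Hy is called replicate 1 and that labelled ExoRNA11250Hy replicate 2, and what the numbers in these labels stand for is not given in the sources used here. The study describes them as biological replicates. RNA of whole polyps was not analysed here, so levels in EVs could not be set against those of the animal.

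Replicate 1 held 5943550 and replicate 2 3943873 estimated counts, of which 5 targets took 97.0% and 98.7%. The mRNA targets outside those 5 held 142638 counts in replicate 1 and 34881 in replicate 2, a ratio of 4.09. Of 473 mRNA targets with at least 40 counts in replicate 1, 452 had a higher TPM in replicate 1, and the median TPM ratio of replicate 1 to replicate 2 was 9.01. The intervals below are at 95% and include no error other than that of counting, and reads may be copies of the same molecule.

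The 5 genes together held 1618 estimated counts in replicate 1 and 44 in replicate 2. These were 1.13% (Wilson interval 1.08 to 1.19) of the mRNA counts outside the 5 most abundant targets in replicate 1 and 0.126% (0.0940 to 0.169) in replicate 2. Their TPM summed to 53.7 in replicate 1 and 2.54 in replicate 2, with a mean of 28.1 ± 36.2 TPM (SD, n = 2 libraries). At the mRNA share of replicate 1, 396 counts would have stood in replicate 2. Without the mRNA target that held the most counts in replicate 2, 12586 of the 34881, the share there was 0.197% and the expected number 275.7, and the expected number of each gene below becomes 0.697 times as large. All 5 genes rested on 69 counts or more in replicate 1, while in replicate 2 most of their counts came from 2 of them, the fibrillin-2-like gene with 52.3% and Fat 1 with 38.6%.

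**Figure D1:**
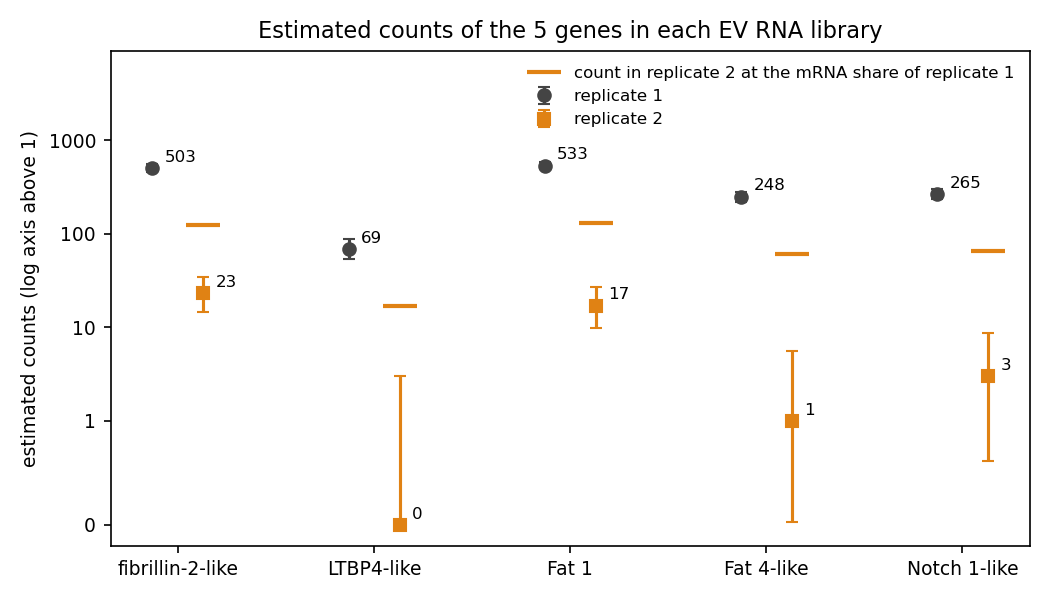
Estimated counts (vertical axis, logarithmic above 1) of the 5 genes in replicate 1 (dark circles) and replicate 2 (orange squares), with 95% Poisson intervals of the rounded counts, and for 0 counts the limit of 3 counts; each horizontal dash is the count that replicate 2 would hold at the gene's share of mRNA counts in replicate 1. Every square lies below its dash, with 23 against 122.9 for the fibrillin-2-like gene and 1 against 60.6 for the Fat 4-like gene.

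The fibrillin-2-like gene was the most abundant of the 5 in each library by TPM. It had 503 estimated counts in replicate 1 and 23 in replicate 2, that is 27.9 TPM (interval 25.5 to 30.4) and 2.01 TPM (1.27 to 3.01). Replicate 1 was higher by 13.9-fold (9.16 to 22.1), and the mean was 14.9 ± 18.3 TPM (SD, n = 2). It ranked 69 by TPM and 23 by count among 21980 mRNA targets in replicate 1, and 196 and 68 in replicate 2. The study's rule for a detected transcript asks for 0.4 TPM in either library, which all 5 genes and 25.3% of mRNA targets met. The fibrillin-2-like gene was the only one of the 5 at that level in both libraries, as were 3.74% of mRNA targets.

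The counts of the fibrillin-2-like gene were split between its targets, XM_002166838.3 of 2698 bases and XM_012711694.1 of 2590 bases. The former took 384 counts (76.3%) in replicate 1 and 22.5 (97.8%) in replicate 2, and the latter 119 and 0.516. Fractional counts arise where kallisto divides reads that fit several targets, so the division between the transcripts is an estimate and the sum is the safer value. The next target in the listing, XM_012711695.1, was at 0 in both libraries, and the files do not say whether it belongs to this gene.

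The LTBP4-like gene, the other matrix gene, was the least abundant of the 5. Its single target of 2139 bases had 69 estimated counts in replicate 1, or 4.82 TPM (3.75 to 6.10), and 0 in replicate 2. A count of 0 allows up to 3 counts there, which is 0.333 TPM on this target, so replicate 1 was at least 14.5-fold higher at its measured level, and at least 11.3-fold higher at the lower limit of that level. At its mRNA share of replicate 1, 16.9 counts would have stood in replicate 2. It ranked 370 by TPM and 254 by count among the mRNA targets of replicate 1.

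Fat 1 held the most counts of the 5 genes in replicate 1, and its target of 10885 bases was longer than all but 37 of 21982 mRNA targets. Its 533 estimated counts in replicate 1 came to 7.06 TPM (6.47 to 7.68), and its 17 in replicate 2 to 0.357 TPM (0.208 to 0.572). By count it ranked 21 in replicate 1 and 91 in replicate 2, but by TPM, which divides by length, it ranked 255 and 1130. The ratio of replicate 1 to replicate 2 was 19.8 (12.2 to 34.2), and the mean was 3.71 ± 4.74 TPM (SD, n = 2). In TPM it stood below the fibrillin-2-like gene in each library, and the intervals of the pair did not overlap in either.

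The Fat 4-like gene was near Fat 1 in replicate 1 and almost missing from replicate 2. Its target of 5791 bases had 248 estimated counts in replicate 1, or 6.22 TPM (5.47 to 7.05), and 1 count in replicate 2, or 0.0398 TPM (0.00101 to 0.222). The ratio was 156 with a counting interval from 27.8 to 6197. At its mRNA share of replicate 1, 60.6 counts would have stood in replicate 2. The interval of its TPM overlapped that of Fat 1 in each library, though only narrowly in replicate 2, where the lower limit of Fat 1 was 0.208 TPM. The list of EV proteins of the study calls the proteins of both Fat genes partial, so the lengths used for TPM may be those of incomplete models.

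The Notch 1-like gene was the second by TPM in replicate 1. It had 265 estimated counts in replicate 1 and 3 in replicate 2, on a target of 4975 bases. These were 7.76 TPM (6.85 to 8.75) and 0.139 TPM (0.0288 to 0.407). The ratio was 55.7 (18.8 to 272) and the mean 3.95 ± 5.39 TPM (SD, n = 2). A small part of its counts in replicate 1 was fractional, so some reads were shared with other targets.

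Among the 5 genes the order by TPM in replicate 1 was fibrillin-2-like, Notch 1-like, Fat 1, Fat 4-like and LTBP4-like. The counting intervals of the first stood clear of the others, whereas those of each neighbouring pair from Notch 1-like downwards overlapped. In replicate 2 the order was fibrillin-2-like, Fat 1, Notch 1-like, Fat 4-like and LTBP4-like, and the last 3 rested on 3 counts or fewer.

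At 0.4 TPM or more, all 5 genes were above the threshold in replicate 1 and 1 was in replicate 2. Of all 21982 mRNA targets, 24.4% reached it in replicate 1 and 4.61% in replicate 2. Since the genes were picked by these TPM values, nothing is read from their count against that background.

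The threshold in TPM corresponds to a different number of counts for each gene, because TPM divides by length. In replicate 2, 0.4 TPM needed 19.0 counts on Fat 1, 10.0 on the Fat 4-like gene, 8.61 on the Notch 1-like gene, 4.58 on the fibrillin-2-like gene and 3.60 on the LTBP4-like gene. Fat 1 with 17 counts therefore stayed below the threshold, as 1 of only 2 mRNA targets with 17 or more counts that did. In contrast, 195 mRNA targets, none longer than 658 bases, passed it in replicate 2 on at most 1 count. By counts, Fat 1 was among the 91 best covered mRNA targets of replicate 2, the library in which its TPM lay under 0.4.

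**Figure D2:**
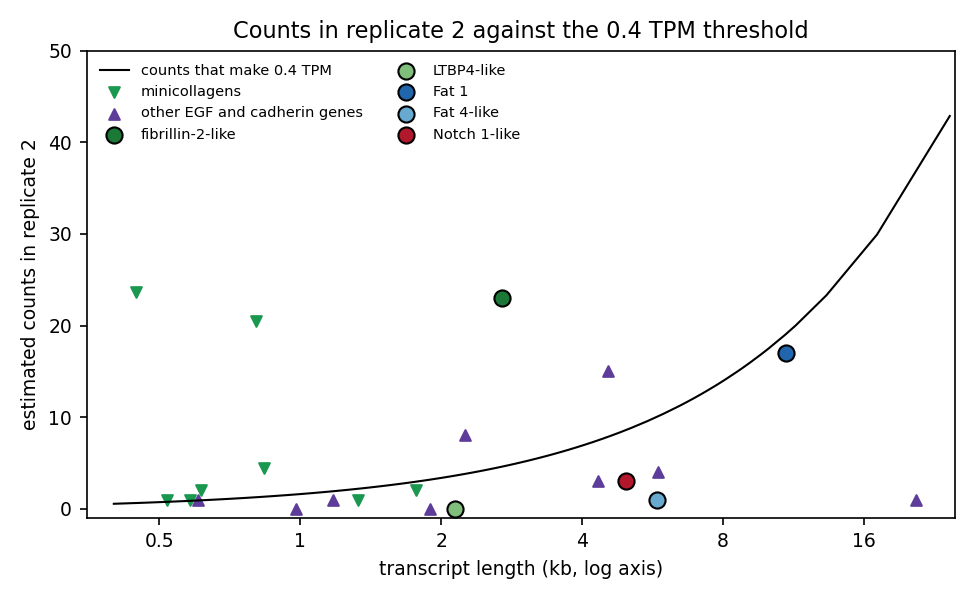
Estimated counts in replicate 2 (vertical axis) against transcript length in kb (logarithmic axis) for the 5 genes (large circles), other EGF and cadherin genes (upward triangles) and minicollagens (downward triangles); the line gives the counts that make 0.4 TPM. Fat 1 lies just under the line with 17 counts, while the short minicollagen 8 transcript lies above it on 1 count.

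All 5 genes were at least 10-fold higher in replicate 1 than in replicate 2, compared with 43.1% of the 473 mRNA targets with at least 40 counts in replicate 1. All 5 also passed 5-fold, as did 76.5% of the targets, and the Fat 4-like and Notch 1-like genes passed 20-fold, as did 16.3%. The LTBP4-like gene, with only a lower bound of 14.5, is undecided at 20-fold. Of the 473, 49 were at 0 in replicate 2 and entered at a lower bound, so the shares given here are minimums. Within the 473 targets, the share at 10-fold or more rose with the length of the transcript, from 18.1% of 116 targets under 1 kb to 29.7% of 138 from 1 to 2 kb, 53.4% of 116 from 2 to 4 kb, 71.8% of 71 from 4 to 8 kb and 90.6% of 32 at 8 kb or more. The Spearman correlation of length with the log2 ratio of TPM + 0.1 was 0.338 over these targets, which share their libraries. On that scale, which damps low values, the class medians did not go on rising with length, and were 3.31 from 2 to 4 kb, 3.21 from 4 to 8 kb and 2.97 at 8 kb or more. The 5 genes had targets between 2139 and 10885 bases, against a median of 1124 bases over all mRNA targets. How far length bears on their ratios was not tested.

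Set beside transcripts of like length, the genes fell into different places. The ratio of Fat 1, 19.8, was close to the median of 18.9 for targets of 8 kb or more. The fibrillin-2-like gene at 13.9 was near the median of 11.3 for 2 to 4 kb, where the middle targets lay between 7.36 and 19.9 (the quartiles). The LTBP4-like gene, in the same length class, had only a lower bound of 14.5. That bound was above the median, and how far above it the ratio lay is not known. The Notch 1-like gene at 55.7 and the Fat 4-like gene at 156 were above the upper quartile of 26.7 for targets from 4 to 8 kb. These ratios rest on 3 counts in replicate 2 for the Notch 1-like gene and 1 for the Fat 4-like gene. Their counting intervals begin at 18.8 and 27.8. The genes were picked by these values, so nothing is read from their place among the targets.

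TPM in these libraries depends on the few targets that took most reads, so ratios were also divided by the median ratio of 9.01, since this quotient does not change when a library is rescaled. Relative to it the ratio was 1.54 times as large for the fibrillin-2-like gene (1.02 to 2.46), 2.19 times for Fat 1 (1.36 to 3.79), 6.18 times for the Notch 1-like gene (2.09 to 30.1) and 17.3 times for the Fat 4-like gene (3.08 to 688). For the LTBP4-like gene it was at least 1.61 times as large. With targets at 0 in replicate 2 taken at their lower bound, 1 of the 473 targets had a larger ratio than the Fat 4-like gene, and 12 had a larger one than the Notch 1-like gene. The 473 include targets of the 5 genes themselves. Among the 12 were the Fat 4-like target and the shorter target of the fibrillin-2-like gene, at 145 on 0.516 counts in replicate 2. With TPM rescaled over mRNA targets, 3 of the 5 genes, Fat 1, the Fat 4-like and the Notch 1-like gene, stayed at 10-fold or more, against 19.0% of the 473 targets. The fibrillin-2-like gene did not, and for the LTBP4-like gene, whose lower bound became 7.84, it cannot be said.

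**Figure D3:**
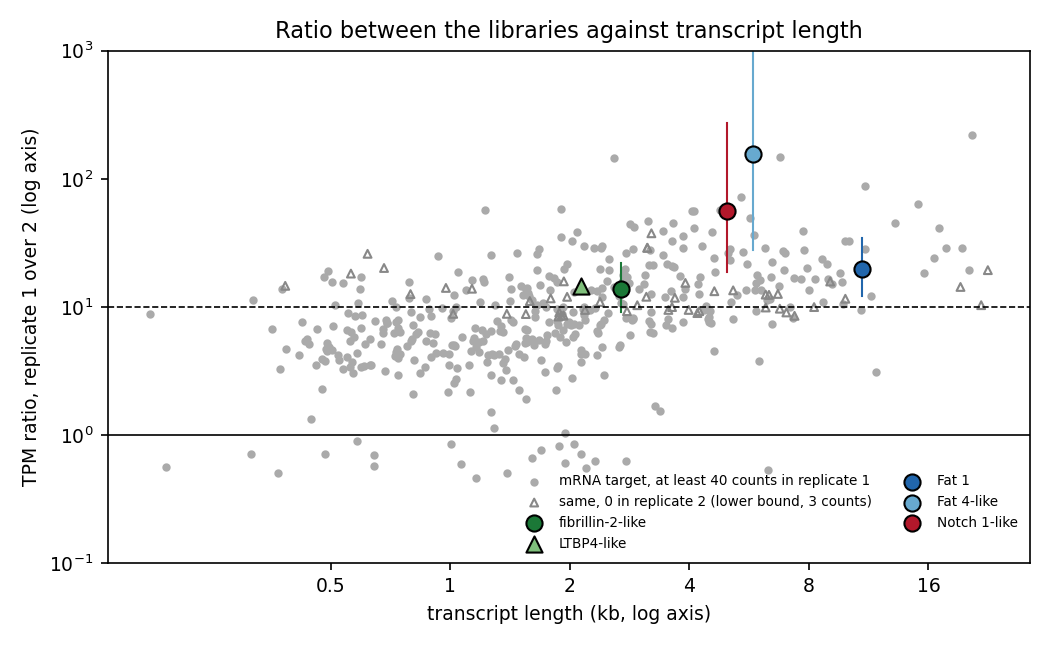
Ratio of TPM in replicate 1 to TPM in replicate 2 (logarithmic axis) against transcript length in kb (logarithmic axis) for 473 mRNA targets with at least 40 counts in replicate 1 (grey) and the 5 genes (coloured, with 95% counting intervals); open triangles and the LTBP4-like gene are at 0 in replicate 2 and show lower bounds. The dashed line marks 10-fold, and the interval of the Fat 4-like gene, which reaches 6197, runs beyond the axis.

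Among the 49 mRNA targets with at least as many counts in replicate 1 as the Fat 4-like gene, 248, there were 5 with a ratio of 50 or more, or 10.2%, a limit chosen after the values were seen. The Fat 4-like and Notch 1-like genes were among these. The others were LOC100207753, described by MAM and LDL-receptor class A domains (350 and 1 counts), the apolipophorins-like LOC100199505 (342 and 3 counts) and, named after its values were seen, the properdin-like LOC100208689 (370 and 4 counts).

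The given part of the gene list held 14 genes whose descriptions name fibrillins, cadherins, Notch, EGF domains or LDL receptor domains, the 5 genes included. The 9 others were at 2.44 to 7.91 TPM in replicate 1 (median 4.76) and at 0 to 0.845 TPM in replicate 2 (median 0.165). All 9 reached 0.4 TPM in replicate 1 and 3 did in replicate 2, against 24.4% and 4.61% of all mRNA targets. The list they come from holds only abundant genes, so nothing is read from these counts against those shares. Their ratios were at 10-fold or more for 5 of the 9, against 43.1% of the 473 targets, and for 2 of the other 4 the ratio was a lower bound because replicate 2 held 0 counts. The 473 targets had at least 40 counts in replicate 1, while some of the 9 had fewer, down to 20, so the sets are not alike. Their median log2 ratio of TPM + 0.1 was 3.59, beside 5.04 for the 5 genes and 2.91 for the 473 targets. The 5.04 takes the LTBP4-like gene at 5.62, a value set by the pseudocount because replicate 2 held 0 counts. Its ratio is known only as a lower bound, so the median of the 5 genes could be lower. The other medians include targets at 0 in replicate 2 too. The 5 genes were picked by these values, so nothing is read from the difference. Since the list begins with the most abundant genes, and was given here only in part, less abundant relatives are not analysed here.

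The other fibrillin genes of the list were both described as fibrillin-1-like. The fibrillin-1-like LOC100205955 had 119 estimated counts in replicate 1 and 8 in replicate 2, with 7.91 and 0.845 TPM. The fibrillin-1-like LOC100207250 had 179 and 15 counts, with 5.75 and 0.764 TPM. Their ratios of 9.37 (4.60 to 22.2) and 7.52 (4.44 to 13.7) lay with that of the fibrillin-2-like gene, and all 3 fibrillin genes were above 0.4 TPM in both libraries. No other gene of the 14 was, apart from the short EGF-like module-containing gene LOC105847027, whose 0.447 TPM in replicate 2 rested on 1 count. In replicate 2, 0.4 TPM needed 3.79 counts on LOC100205955 and 7.85 on LOC100207250. On the longer Fat 1 it needed 19.0, and Fat 1 stayed below with 17 counts, more than either of these. Of all mRNA targets, 3.74% were at 0.4 TPM or more in both libraries. The list holds only abundant genes, so nothing is read from which genes passed.

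The third gene named for Fat cadherins, the fat-like cadherin-related tumor suppressor homolog LOC101237052, was close to the Fat 4-like gene in length and in replicate 1. It had 232 estimated counts in replicate 1 and 4 in replicate 2 on 5809 bases, or 5.80 and 0.159 TPM. Its ratio of 36.5 (14.1 to 135) fell between those of Fat 1 and the Fat 4-like gene. Summed by group, the 3 Fat genes had 1013 counts in replicate 1 and 22 in replicate 2, so 2.13% of their counts over both were in replicate 2, compared with 5.43% of the 801 and 46 counts of the 3 fibrillin genes. The fibrillin transcripts were between 2244 and 4546 bases, and those of the Fat genes were all longer.

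**Figure D4:**
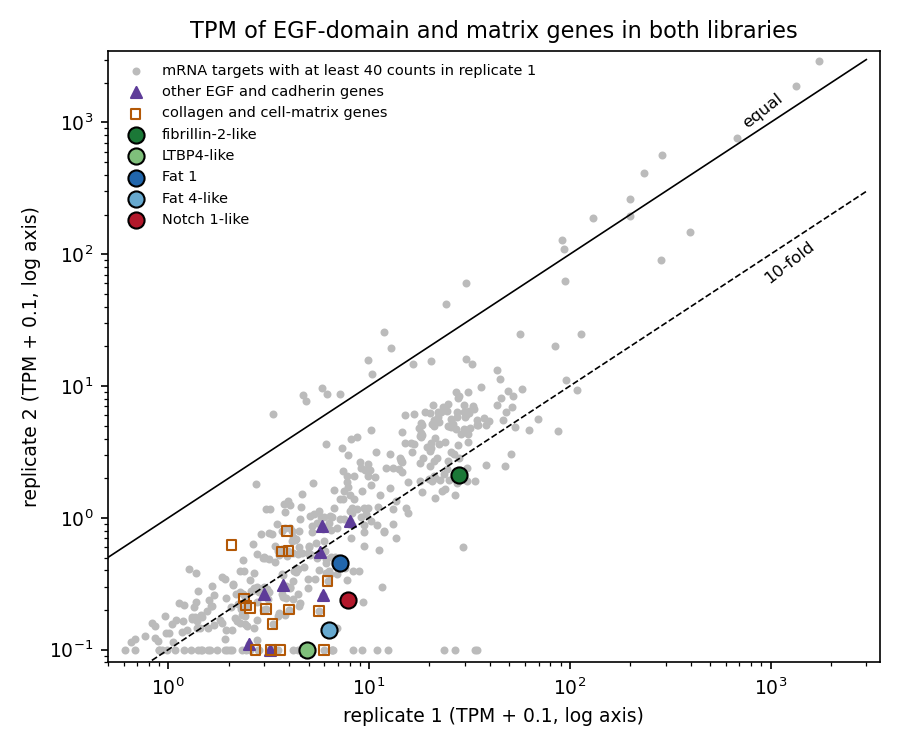
TPM + 0.1 in replicate 1 (horizontal) and replicate 2 (vertical), both on logarithmic axes, for the 5 genes (large circles), the other EGF and cadherin genes (triangles), the collagen and cell-matrix genes (open squares) and 473 mRNA targets with at least 40 counts in replicate 1 (grey); the solid line marks equal values and the dashed line a 10-fold higher value in replicate 1. The fibrillin-2-like gene stands at 27.9 and 2.01 TPM, and all 5 genes lie below the dashed line.

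For the Notch 1-like gene, the list held 1 gene named for a ligand family and 1 for a processing enzyme. The neurogenic locus protein delta-like LOC101239605, whose namesakes are Notch ligands, had 29.6 estimated counts and 4.76 TPM in replicate 1 and 0 in replicate 2. Its counts were fractional, as were those of LOC101239703, described by CUB and EGF-like domains (27.4 and 1 counts). The ADAM10-like metalloproteinase LOC100208233, named for an enzyme that cuts Notch in other animals, had 69.6 and 7 counts, or 4.39 and 0.701 TPM, and a ratio of 6.26 (2.90 to 16.2). The ADAM10-like gene was therefore above 0.4 TPM in both libraries, as were 3.74% of all mRNA targets, while the Notch 1-like and delta-like genes were so in replicate 1 alone. In replicate 2 that level needed 3.99 counts on the ADAM10-like gene, 8.61 on the Notch 1-like gene and 1.56 on the delta-like gene. They had 7, 3 and 0 counts there, so nothing is read from the contrast. No other gene of the Notch, TGF-beta and Hippo pathways sought was in the given part of the list.

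The 16 collagen and cell-matrix genes of the list include matrix proteins, a receptor for them and proteins that act inside the cell at its attachment to matrix, such as talins. They ranged from 1.97 to 6.12 TPM in replicate 1 (median 3.35) and from 0 to 0.695 TPM in replicate 2 (median 0.106), and 4 of them were at 0 in replicate 2. All 16 reached 0.4 TPM in replicate 1 and 4 did in replicate 2, against 24.4% and 4.61% of all mRNA targets, but the list they come from holds only abundant genes. Of the 16, 9 were at 10-fold or more, against 43.1% of the 473 targets, and nothing is read from either count. A collagen alpha-1(II) chain gene (LOC100212826), a fibrillar collagen, had 182 and 2 counts and a ratio of 57.3 (15.6 to 477). Of the genes described as fibrillar collagen, LOC100211987 had 122 and 2 counts and a ratio of 38.4, and LOC100199754 had 119 and 9 counts and a ratio of 8.34. The type IV collagen alpha 1 chain gene (LOC101240588), which codes for a basement membrane collagen, had 69.4 and 5.58 counts and a ratio of 7.84 (3.16 to 20.4). A collagen alpha-1(IV) chain-like gene (LOC100205218) had 22 and 0 counts. The integrin beta-2-like gene (LOC100213119), a cell surface receptor for matrix, had 46 and 1 counts. By TPM in replicate 1, the fibrillin-2-like gene was above every one of these 16 genes, and Fat 1, the Fat 4-like gene and the Notch 1-like gene were as well, though the Fat 4-like gene at 6.22 TPM exceeded the highest of them, the SCO-spondin-like LOC100197287 at 6.12 TPM, by less than its counting interval.

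Minicollagens build the wall of the nematocyst capsule and are made in developing stinging cells, the nematoblasts. The 8 minicollagen genes of the list summed to 88.2 TPM in replicate 1 and 29.2 TPM in replicate 2, and none was at 0 in either. Their median log2 ratio of TPM + 0.1 was 2.81, close to the 2.91 of the 473 targets, and they had short transcripts, between 447 and 1764 bases. Whether transcripts of nematoblasts bear on the values of the 5 genes was not tested.

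By TPM in both libraries, on the log2 scale of TPM + 0.1, the gene nearest to Fat 1 among 1210 matched genes was the microtubule-actin cross-linking factor 1-like LOC105843599, at a distance of 0.0310, another very long transcript with 20229 bases. The next was the prosaposin-like LOC100208544 (0.0781). The nearest to the fibrillin-2-like gene were the AHNAK-like LOC101240323 (0.194) and the gene for a 40S ribosomal protein S11-like protein, LOC100203600 (0.196). The Notch 1-like gene was nearest to the apolipophorins-like LOC100199505 (0.258) and then to the fat-like LOC101237052 (0.428). No matched gene was closer to the Fat 4-like gene than 0.484, the distance of the mitochondrial ND3 and of LOC105850316, which is given no description. ND3 rests on 11 counts in replicate 1 and LOC105850316 on 2, and both were at 0 in replicate 2. The LTBP4-like gene was nearest to the glutaredoxin-2-like LOC100203063 (0.00114) and the astacin-like LOC100212827 (0.00303), but these rest on 10 and 25 counts in replicate 1 and share the value of 0 in replicate 2. Over 2 libraries such distances describe levels only.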

How the data were processed

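RNA of EVs was sequenced in 2 libraries of 1 condition, prepared with the Ovation SoLo kit. Per the labels and methods, the authors trimmed the reads with Trim Galore and quantified them with kallisto on the transcripts of assembly Hydra_RP_1.0; the kallisto version is not given in the sources used here. The authors deposited, per target, the estimated counts, which are not normalized, the TPM, scaled to the same sum per library, and lengths. TPM values were used as deposited.

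Genes were matched to targets by their TPM pair in the given part of the supplementary gene list (1264 genes), within a relative tolerance of 2e-05, as 1 target or up to 6 adjacent ones: 1210 matched once, 30 had several candidates and 24 none. Matching was tested on runs of targets drawn from the deposited values, and the ratio intervals on simulated counts. Members and lists were chosen with earlier results of these data known. Named genes are the members, the lists, and for each member the nearest 2 matched genes. In the EGF list the word had to begin with EGF, which leaves out VEGF. Intervals are exact Poisson for counts, exact binomial for ratios and Wilson for shares, at 95%, on rounded counts. A target at 0 took 3 counts in ratios, and counts under 0.01, chosen after seeing the data, were read as 0. No test was made and no differential expression tool used. A planned search of protein motifs was not run, since no protein sequences were used here. The annotation of HydraT2T_AEP matched 4 of 5 members and gave no coordinates here. Python 3.11.15, numpy 2.4.6, pandas 2.3.3 and scipy 1.17.1 were used.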

Additional observations from a re-analysis of the deposited data

How the results depend on the processing

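No paired analysis was possible because there is 1 condition. The log2 ratio of replicate 1 to replicate 2 was positive in all 25 combinations of the 5 genes with an alternative scaling, pseudocount or target, between 2.54 and 11.4. The 11.4 was the LTBP4-like gene with TPM rescaled over mRNA targets. It had 0 counts in replicate 2, so the pseudocount set this value, and its ratio there has only a lower bound of 7.84-fold. The highest value of any other gene was 7.29, for the Fat 4-like gene. For genes with a single target the choice of target changes nothing. The genes were picked by their TPM values, so nothing is read from the sign. TPM rescaled without the 5 most abundant targets and ribosomal RNA moved the mean summed TPM from 28.1 to 960.2, and rescaling over mRNA targets to 1598. The factors differ between the libraries, so the log2 ratio of any gene shifts by -0.35 and -0.89 before a pseudocount is added. The log2 ratio of the summed TPM was 4.35, and fell to 3.52 with rescaling over mRNA and to 3.95 with a pseudocount of 1 TPM. Leaving out either library put the mean summed TPM between 2.54 and 53.7, and the number of genes detected at 0.4 TPM between 1 and 5. Requiring 0.4 TPM in both libraries left 1 gene, and thresholds of 0.2 and 1 TPM or at least 3 or 10 counts left 5. Of the 473 mRNA targets, 76.5% passed 5-fold and 16.3% passed 20-fold, where 2 of the 5 genes remained. With rescaling over mRNA, chosen after seeing the data, 19.0% of targets and 3 genes passed 10-fold. The LTBP4-like gene, as a lower bound, was undecided both there and at 20-fold. The genes held 0.443% and 0.0493% of all mRNA counts in replicates 1 and 2, and 1.24% and 0.197% without the mRNA target that had the most counts in replicate 2, an alternative chosen after seeing the data. In replicate 2, 3 genes had 3 counts or fewer, so differences among them were not detectable at this depth.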
